A study of Mus musculus with 8 samples.

Results

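The genes studied here encode the 2 chaperonin complexes of the mouse cell. They are Tcp1, Cct2, Cct3, Cct4, Cct5, Cct6a, Cct7 and Cct8, which encode the subunits of the cytosolic complex (CCT, also called TRiC), and Hspd1 and Hspe1, which encode the mitochondrial complex. They were chosen by name, as 10 of the 55487 genes listed, and all 10 were among the 12060 genes tested. RNA came from muscle stem cells (MuSCs) sorted by FACS from hindlimb muscles of aged wild-type C57BL/6JRj male mice. Each of 4 pools held the cells of 2 mice and gave 1 library with vehicle (1% DMSO) and 1 library with NAM/PN, which is nicotinamide with pyridoxine, a form of vitamin B6, at a labelled 1 mM, after 3 days in growth medium. Whether this concentration is that of each compound or of both together is not given in the sources used here. The sort kept cells that carried CD34 and integrin α7 and lacked CD31, CD45, CD11b and Sca1. The percentage of DMSO is that of the labels, and the study's supplement names a lower one for cultured mouse MuSCs. Pooling hides the spread between single mice, and both groups were cultured, so neither stands for freshly isolated cells.

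A chaperonin is a barrel of stacked rings in which an unfolded protein is enclosed and folded at the cost of ATP. CCT has 8 different subunits, each with its own place in the ring, and its best known clients are actin and tubulin, which proliferating and differentiating myoblasts make in large amounts. The complex depends on helpers such as prefoldin, which hands over newly made chains. In mitochondria, Hspd1 (HSP60) forms the barrel and Hspe1 (HSP10) its lid, and together they fold proteins imported into the matrix. Both genes of the mitochondrial pair, like many other chaperone genes, are known targets of heat shock factors.

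Library totals lay between 6472484 and 10163101 counts, and the members had between 886 and 14501 counts in a library, so counting error was small beside the spread between libraries. The libraries of vehicle pool 3 and NAM/PN pool 4 stood apart from the others. Ribosomal RNA genes held 18.7% of counts in vehicle pool 3 and 5.22% in NAM/PN pool 4, against 9.09% to 11.6% in the other 6 libraries. Vehicle pool 3 was the lowest library for 7 of the 10 members and NAM/PN pool 4 the highest for 5, so the fitted value without these 2 libraries is given for each member. All 9 muscle stem cell markers were detected, with a summed level of 3029 to 3443 CPM in vehicle libraries and 2399 to 3032 CPM with NAM/PN. The 10 markers of myogenic differentiation summed to 1703 to 3323 CPM in vehicle libraries and 291 to 784 CPM with NAM/PN, and 8 of them were called lower. The part of this difference in the chaperonin values was not tested. Among markers of other cells, Ptprc, Itgam, Adgre1, Cd3e, Emcn, Flt1, Cldn5, Pdgfra, Lum and Myh11 were at 0 in every library. The sums of the 5 immune and 5 endothelial markers were at most 7.58 and 5.99 CPM, and the 5 mural markers summed to 18.9 to 60.3 CPM in vehicle libraries and 20.7 to 30.8 CPM with NAM/PN. The 6 fibro-adipogenic markers summed to 153 to 207 CPM in vehicle libraries and 57.0 to 1123 CPM with NAM/PN, with the highest sums from Col1a1 in NAM/PN pools 1 and 2. Of this list Col3a1 was called lower, at 155 ± 7.86 (vehicle) and 69.2 ± 12.7 CPM (NAM/PN; SD, n = 4 each), with a log2 fold change of -1.17 (adjusted p = 0.00255).

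None of the 10 chaperonin genes passed the test between NAM/PN and vehicle. The fitted log2 fold changes were between 0.017 for Cct3 and 0.49 for Hspe1, so all 10 lay above 0, as did 49.8% of all tested genes. With edgeR's quasi-likelihood test the smallest adjusted p was 0.402, for Hspe1, while 1.28% of tested genes were called in either direction and 0.282% were called higher. At an unadjusted p under 0.05, 2 of the 10 were higher, Cct7 and Hspe1, against 3.96% of all tested genes. DESeq2 and limma (voom) also called 0 of the 10, with 3 each at an unadjusted p under 0.05. In 2 of the 10, Cct2 and Cct7, all 4 NAM/PN libraries lay above all 4 vehicle libraries, against 2.79% of all tested genes. The members are highly expressed, so the same shares are given for genes at their level. Among the 975 tested genes within the members' range of average log2 CPM, 3.18% were called, 60.0% had a log2 fold change above 0, 8.92% were higher at an unadjusted p under 0.05 and 7.08% were higher with no overlap. The biological coefficient of variation, the spread between libraries beyond counting error, was 0.167 to 0.226 for the members with a median of 0.186, near the median of 0.195 for the genes at their level. The fit draws these estimates towards those of genes at a similar level, so this nearness is partly built in.

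**Figure D1:**
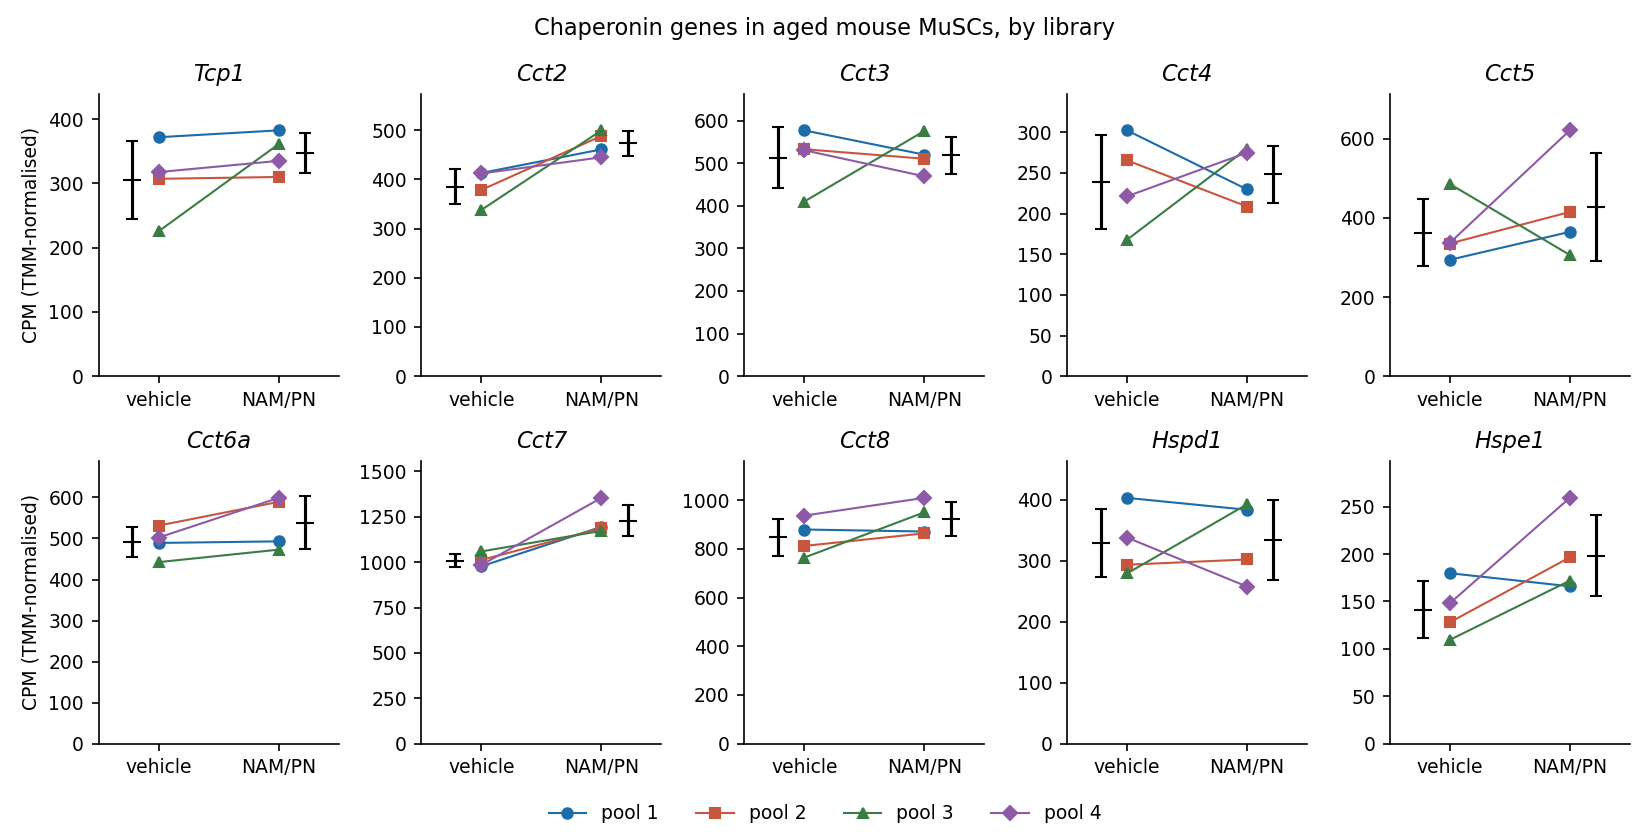
TMM-normalised CPM (y axes, starting at 0) of the 10 chaperonin genes in the 4 vehicle and 4 NAM/PN libraries, with lines joining the libraries of a pool and black marks for mean and SD. Groups are apart for Cct2 and Cct7 only, and the vehicle library of pool 3 is the lowest point in 7 panels.

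The mitochondrial chaperonin is the product of a pair of genes that start next to each other. Hspd1 (ENSMUSG00000025980, chr1:55077835-55088243, minus strand) and Hspe1 (ENSMUSG00000073676, chr1:55088132-55091307, plus strand) run in opposite directions on GRCm38 from starts 111 bases apart, and their 5′ ends overlap. The promoter of Hspe1 is shown because it shares most of its bases with a listed promoter of Hspd1. It does not reach the Hspd1 start given here, which lies beyond its end. The RefSeq promoter of Hspe1, with 250 bases before and 50 bases after its start, is chr1:55087898-55088197 on the plus strand of GRCm38.p6, and capitals mark the units of heat shock elements found in it.

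Hspe1: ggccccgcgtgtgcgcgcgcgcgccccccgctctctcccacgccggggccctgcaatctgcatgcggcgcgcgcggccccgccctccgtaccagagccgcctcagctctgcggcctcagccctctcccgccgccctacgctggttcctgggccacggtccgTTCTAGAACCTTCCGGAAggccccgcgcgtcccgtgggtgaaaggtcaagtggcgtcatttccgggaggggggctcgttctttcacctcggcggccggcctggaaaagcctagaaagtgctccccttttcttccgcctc

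The letters searched were GAANNTTC and TTCNNGAA, for heat shock elements, and CACGTG. Each reads the same on both strands, and the heat shock matches may overlap by a shared unit. In this promoter 3 matches joined into a run of 18 bases that begins at position -89 from the start. One or more matches were in 7.86% (GAANNTTC) and 8.52% (TTCNNGAA) of 32851 promoters of the same length, and a match of each kind sharing a unit was in 0.603%, or 198 promoters. Of the 12 promoters of members, those of Hspe1 and Hspd1 held the joined form. One of the Hspd1 promoters, chr1:55087883-55088182 on the minus strand, shares 285 bases with that of Hspe1, so it is the same run read from the other side. A further Hspd1 promoter, chr1:55088194-55088493, shares 4 bases with it and held neither pair of units but 1 match to CACGTG, which is in 7.15% of promoters. These matches describe the sequence and were not tested for binding.

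Hspe1, the lid, had the largest fitted difference of the 10 members with all 8 libraries, but not without vehicle pool 3, without both libraries of pool 3 or of pool 4, or without vehicle pool 3 and NAM/PN pool 4, where Cct5 or Cct2 had a larger one. Its levels in vehicle pools 1 to 4 were 179.7, 128, 109 and 148 CPM, and in NAM/PN pools 1 to 4 they were 166, 196, 172 and 259 CPM. The highest value was in NAM/PN pool 4 and the lowest in vehicle pool 3, and the groups overlapped because vehicle pool 1 lay above 2 of the NAM/PN libraries. The means were 141 ± 30.1 (vehicle) and 198 ± 42.6 CPM (NAM/PN; SD, n = 4 each). The log2 fold change was 0.49 (SE 0.20, 95% interval 0.070 to 0.91, adjusted p = 0.402), with an unadjusted p of 0.0247. Within pools the log2 difference was -0.12, 0.62, 0.65 and 0.81 in pools 1 to 4, so it was above 0 in 3 of 4 pools. Without vehicle pool 3 and NAM/PN pool 4 the log2 fold change was 0.22.

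Hspd1, the barrel, had nearly equal means in both groups, 328 ± 55.7 (vehicle) and 334 ± 65.1 CPM (NAM/PN; SD, n = 4 each). It was at 403, 293, 279 and 338 CPM in vehicle pools 1 to 4 and at 383, 302, 392 and 257 CPM in NAM/PN pools 1 to 4. Both groups covered nearly the same range, and NAM/PN pool 4, the library highest for Hspe1, was the lowest of all for Hspd1. The log2 fold change was 0.024 (SE 0.18, 95% interval -0.35 to 0.40, adjusted p = 0.994), an interval that runs from 0.783-fold to 1.32-fold. Without vehicle pool 2, vehicle pool 3, NAM/PN pool 1 or NAM/PN pool 3 it lay below 0, at -0.028, -0.052, -0.050 and -0.064. It was 0.13 without vehicle pool 1 or without NAM/PN pool 4, 0.069 without NAM/PN pool 2 and 0.052 without vehicle pool 3 and NAM/PN pool 4. Reads of Hspd1 may be shared with its processed pseudogene Hspd1-ps3, which held 12.6% to 27.7% of the joint counts, with the highest share in vehicle pool 3. With both counted as 1 gene the log2 fold change of Hspd1 was -0.025. The other 12 pseudogenes of members had at most 5 counts in a library.

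The ratio of Hspd1 to Hspe1 counts in a library does not depend on library size. It was 2.24, 2.29, 2.55 and 2.28 in vehicle pools 1 to 4 and 2.31, 1.54, 2.28 and 0.993 in NAM/PN pools 1 to 4. The vehicle libraries lay close together, whereas NAM/PN pools 2 and 4 lay below all of them and pools 1 and 3 lay among them. On the log2 scale the mean was 1.23 ± 0.084 with vehicle and 0.75 ± 0.58 with NAM/PN (SD, n = 4 each), a difference of -0.47 (two-sided exact permutation test over 70 assignments, p = 0.229). The ratio was lower with NAM/PN in 3 of 4 pools. Without NAM/PN pool 4 the difference was -0.22, and without that library and vehicle pool 3 it was -0.18. Because the 5′ ends of both genes overlap on opposite strands and the strand setting of the counting is not given in the sources used here, reads from the overlap cannot be told apart, although the kit reads the 3′ ends.

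**Figure D2:**
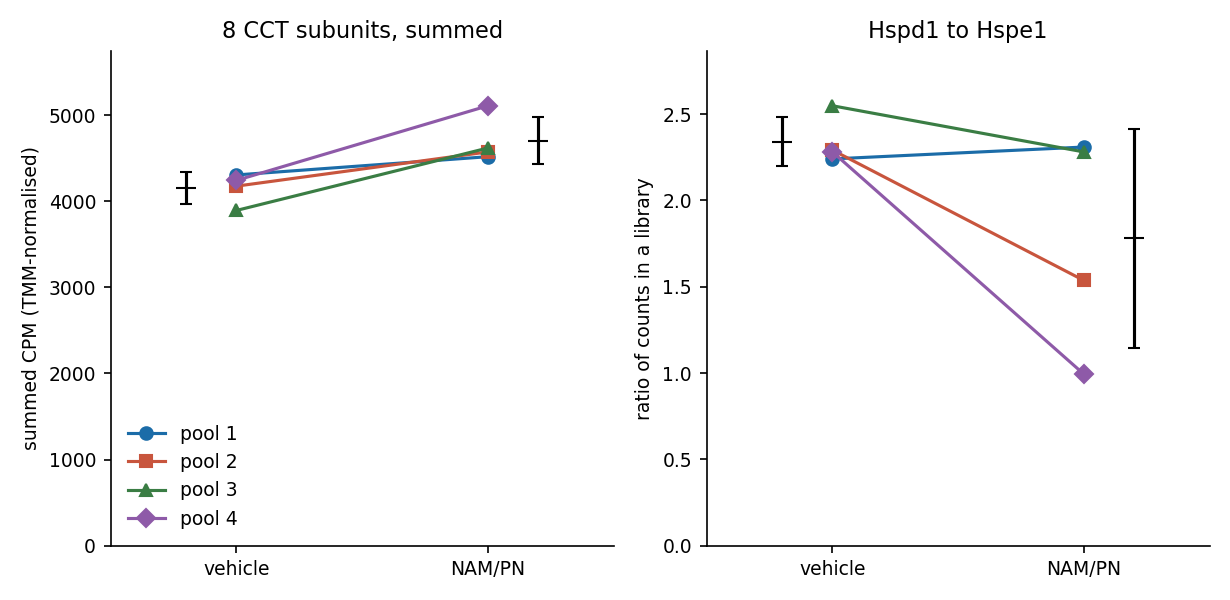
Left, summed CPM of the 8 CCT subunits; right, ratio of Hspd1 to Hspe1 counts; both y axes start at 0, lines join the libraries of a pool and black marks are mean and SD. All NAM/PN sums (4517 to 5109) lie above all vehicle sums (3893 to 4305), while the ratio in NAM/PN pools reaches from 0.993 to 2.31 and overlaps the vehicle values.

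The CCT subunits are described by their handling of ATP, which is uneven around the ring. Tcp1, Cct2, Cct4 and Cct5 encode the subunits known to bind ATP tightly, and Cct3, Cct6a, Cct7 and Cct8 those that bind it weakly. On the first side, Cct2 (ENSMUSG00000034024, chr10:117051001-117063814, minus strand), the β subunit, was at 413, 379, 338 and 412 CPM in vehicle pools 1 to 4 and at 461, 489, 499.9 and 445 CPM in NAM/PN pools 1 to 4. Every NAM/PN library was above every vehicle library, and the values with NAM/PN were higher in each of the 4 pools. The means were 386 ± 35.4 (vehicle) and 474 ± 25.0 CPM (NAM/PN; SD, n = 4 each). Its fitted log2 fold change was 0.30 (SE 0.15, 95% interval -0.016 to 0.61, adjusted p = 0.584), with an unadjusted p of 0.0616, and it was 0.26 without the 2 libraries that stood apart.

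Tcp1 (ENSMUSG00000068039, chr17:12915701-12925067, plus strand) encodes the α subunit, after which the complex was first named. It had 372, 307, 225 and 317 CPM in the vehicle and 382, 309.9, 361 and 335 CPM in the NAM/PN libraries of pools 1 to 4. All libraries but vehicle pool 3 were between 307 and 382 CPM, and the groups overlapped. Within pools the log2 difference of Tcp1 was 0.041, 0.014, 0.68 and 0.077 in pools 1 to 4, so it was above 0 in each. For Tcp1 the log2 fold change was 0.18 (SE 0.17, 95% interval -0.18 to 0.55, adjusted p = 0.874), and it was 0.29 without vehicle pool 1, 0.058 without vehicle pool 3 and 0.073 without the 2 libraries that stood apart. Cct4 (ENSMUSG00000007739, chr11:22990519-23003780, plus strand), the δ subunit, was at 302, 266, 168 and 221 CPM in the vehicle and 229.8, 209, 279.9 and 275 CPM in the NAM/PN libraries of pools 1 to 4. It was lower with NAM/PN in pools 1 and 2 and higher in pools 3 and 4, and its vehicle values spanned the whole range of the NAM/PN values. For Cct4 the log2 fold change was 0.054 (SE 0.19, 95% interval -0.35 to 0.46, adjusted p = 0.986), and it was 0.18 without vehicle pool 1, -0.088 without vehicle pool 3, -0.0085 without NAM/PN pool 3, 0.00051 without NAM/PN pool 4 and -0.14 without vehicle pool 3 and NAM/PN pool 4.

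Cct5 (ENSMUSG00000022234, chr15:31590800-31601804, minus strand) encodes the ε subunit, mutated in a hereditary sensory neuropathy, and varied most among the CCT genes. Its levels were 294, 335, 486 and 337 CPM in vehicle pools 1 to 4 and 365, 415, 306 and 621 CPM in NAM/PN pools 1 to 4. The highest values were in the 2 libraries that stood apart, NAM/PN pool 4 and vehicle pool 3, 1 of each group. For Cct5 the log2 fold change was 0.23 (SE 0.21, 95% interval -0.21 to 0.68, adjusted p = 0.867), and within pools the log2 difference ranged from -0.66 in pool 3 to 0.88 in pool 4. Without NAM/PN pool 4 the fitted value was -0.0043, without both libraries of pool 4 it was -0.038, and without both of pool 3 it was 0.53. It was 0.14 without vehicle pool 1, 0.36 without NAM/PN pool 3, 0.40 without vehicle pool 3 and 0.16 without vehicle pool 3 and NAM/PN pool 4. One Cct5 promoter, one Cct2 promoter and the Cct6a promoter each held a single heat shock pair, in capitals below, without the joined form of the Hspe1 promoter. They are shown for contrast with it, each with 20 bases on either side where the promoter reached so far. The stretches are chr10:117063390-117063437 (minus strand) for Cct2, chr15:31601853-31601900 (minus strand) for Cct5 and chr5:129787360-129787405 (plus strand) for Cct6a, from RefSeq on GRCm38.p6.

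Cct2: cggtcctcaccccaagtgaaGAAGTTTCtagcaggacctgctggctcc
Cct5: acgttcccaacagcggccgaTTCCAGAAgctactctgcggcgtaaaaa
Cct6a: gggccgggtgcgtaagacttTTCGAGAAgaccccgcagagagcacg

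Promoters were listed for 9 of the 10 members, all but Cct4, and those of Tcp1, Cct3, Cct7 and Cct8 held none of the letters searched. The 12 promoters had a median GC content of 63.5%, with a range of 47.3% to 73.3%, against a median of 52.7% over all promoters.

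On the weakly binding side, Cct7 (ENSMUSG00000030007, chr6:85451514-85468475, plus strand) encodes the η subunit and had the lowest biological coefficient of variation of the 10. It was at 978, 1012, 1059 and 985 CPM in vehicle pools 1 to 4 and at 1195, 1187, 1173 and 1354 CPM in NAM/PN pools 1 to 4. The groups did not overlap, with a gap between the highest vehicle library, pool 3, and the lowest NAM/PN library, also pool 3. The means were 1008 ± 36.9 (vehicle) and 1227 ± 85.3 CPM (NAM/PN; SD, n = 4 each). Its fitted log2 fold change was 0.28 (SE 0.13, 95% interval 0.0023 to 0.56, adjusted p = 0.530), with an unadjusted p of 0.0483 that was 0.0821 with the pool as a block. Without vehicle pool 3 and NAM/PN pool 4 the value was 0.25, and its lowest over all other settings and left-out libraries was 0.22.

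Cct3 (ENSMUSG00000001416, chr3:88297116-88321767, plus strand), the γ subunit, was at 577, 533, 409.9 and 531 CPM in the vehicle and 520.1, 511, 576 and 469 CPM in the NAM/PN libraries of pools 1 to 4. It was lower with NAM/PN in 3 of 4 pools, and its lowest libraries, vehicle pool 3 and NAM/PN pool 4, were those in which Cct5 was highest. Fitted over all libraries, its log2 fold change was 0.017 (SE 0.16, 95% interval -0.31 to 0.34, adjusted p = 0.994), and it was 0.076 without vehicle pool 1, -0.081 without vehicle pool 3, -0.036 without NAM/PN pool 3, 0.062 without NAM/PN pool 4 and -0.038 without vehicle pool 3 and NAM/PN pool 4. Cct6a (ENSMUSG00000029447, chr5:129786998-129846371, plus strand), the ζ subunit of most tissues, was at 489, 531, 442 and 502 CPM in the vehicle and 493, 589, 473 and 599 CPM in the NAM/PN libraries of pools 1 to 4. NAM/PN was higher in all 4 pools, by 0.011 to 0.25 on the log2 scale, but the groups overlapped. For Cct6a the log2 fold change was 0.13 (SE 0.15, 95% interval -0.19 to 0.45, adjusted p = 0.912). It was 0.080 without vehicle pool 3, 0.087 without NAM/PN pool 2, 0.076 without NAM/PN pool 4 and 0.022 without vehicle pool 3 and NAM/PN pool 4. Cct8 (ENSMUSG00000025613, chr16:87483326-87495873, minus strand), the θ subunit, was at 880.0, 813, 765 and 937 CPM in the vehicle and 872, 864, 951 and 1010.0 CPM in the NAM/PN libraries of pools 1 to 4. It was higher in 3 of 4 pools and overlapped between groups, and the log2 fold change was 0.12 (SE 0.14, 95% interval -0.17 to 0.42, adjusted p = 0.912). For Cct8 the value was 0.071 without vehicle pool 3, 0.077 without NAM/PN pool 4 and 0.023 without both.

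**Figure D3:**
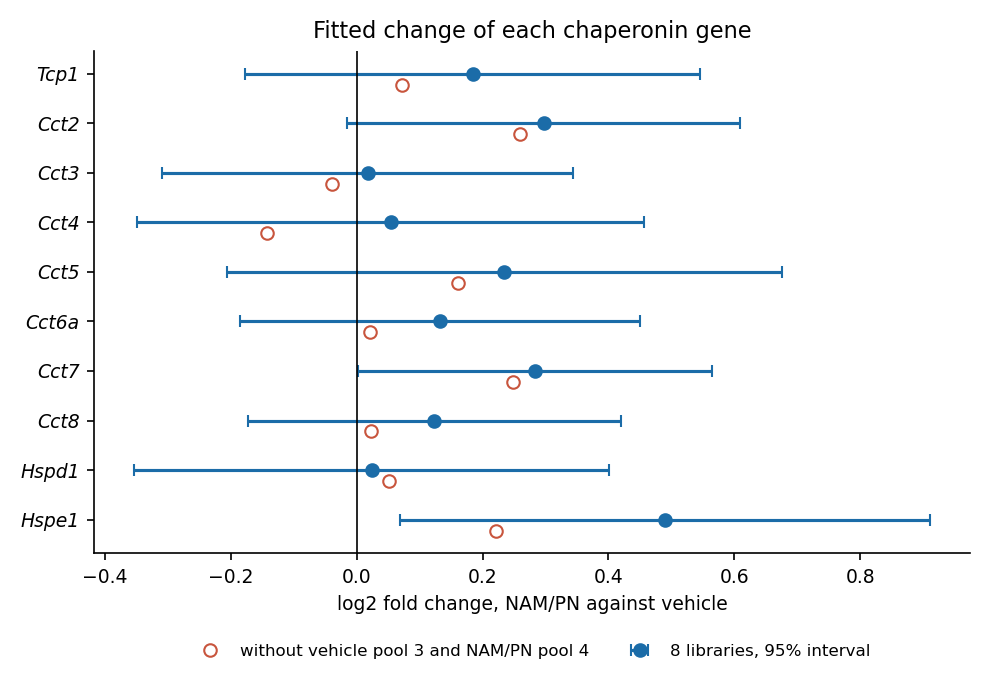
Log2 fold change of NAM/PN against vehicle (x axis) of the 10 members, with filled points and bars for the fit to all 8 libraries and its 95% interval, and open points without vehicle pool 3 and NAM/PN pool 4, with no interval drawn. All filled points are above 0 and the intervals of Cct7 and Hspe1 do not reach it, while the open points of Cct3 (-0.038) and Cct4 (-0.14) are below 0.

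Taken as 1 quantity, the summed level of the 8 CCT genes was 4305, 4175, 3893 and 4243 CPM in vehicle pools 1 to 4 and 4517, 4573, 4619 and 5109 CPM in NAM/PN pools 1 to 4. Each NAM/PN sum lay above each vehicle sum, and the means were 4154 ± 182 and 4705 ± 273 CPM (SD, n = 4 each), a ratio of 1.13. The sums did not overlap either with library totals, with upper-quartile scaling or with ribosomal RNA genes removed, where the ratio was 1.18, 1.12 and 1.13. Without vehicle pool 3 and NAM/PN pool 4 the ratio was 1.08. Of the 8 genes only Cct2 (386 and 474 CPM, means with vehicle and NAM/PN) and Cct7 (1008 and 1227 CPM) were free of overlap. The means of Cct3 (513 and 519 CPM) and Cct4 (239 and 248 CPM) were nearly equal. The mean share of counts on the mitochondrial genome was 5.82% ± 1.89 (vehicle) and 3.98% ± 0.985 (NAM/PN; SD, n = 4 each), with overlapping groups at 7.30, 4.73, 3.73 and 7.54% of the library in vehicle pools 1 to 4 and 4.07, 4.55, 4.74 and 2.56% in NAM/PN pools 1 to 4. NAM/PN pool 4, with the highest CCT sum, had the lowest of these shares and the fewest genes detected, 12483 against 12939 to 14472, and the part of this in the sum was not tested. No p is given for the sum, since its members were chosen with results of these data known. How often the sum of 8 other genes at this level separates the groups was not examined. The median log2 fold change of the 8 subunits was 0.16, against -0.0022 over all tested genes and 0.053 over the 975 genes at the members' level. It was 0.075 without vehicle pool 3, 0.077 without NAM/PN pool 4 and 0.048 without both. In bulk RNA, a change in the number of cells that express a gene and a change in RNA per cell cannot be told apart. The summed level of Hspd1 and Hspe1 was 582, 421, 388 and 486 CPM in the vehicle and 549, 498, 564 and 517 CPM in the NAM/PN libraries of pools 1 to 4, and these groups overlapped.

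Because the assay reads 1 end of each transcript, counts were not divided by length and levels are not compared between subunits, but the share of a subunit in the CCT counts can be compared between libraries. No share was free of overlap between groups. The Cct7 share was 24.3% ± 2.01 with vehicle and 26.1% ± 0.519 with NAM/PN (SD, n = 4 each), and the Cct8 share was 20.4% ± 1.20 and 19.6% ± 0.724. The share of Cct5 was 6.83, 8.03, 12.5 and 7.94% in vehicle pools 1 to 4 and 8.07, 9.07, 6.63 and 12.2% in NAM/PN pools 1 to 4. It was near 12% in vehicle pool 3 and NAM/PN pool 4 and below 10% in the other 6 libraries. Cct3 took 13.4, 12.8, 10.5 and 12.5% with vehicle and 11.5, 11.2, 12.5 and 9.19% with NAM/PN, with its lowest shares in the same 2 libraries. Its mean share was 12.3% ± 1.24 with vehicle and 11.1% ± 1.38 with NAM/PN (SD, n = 4 each).

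**Figure D4:**
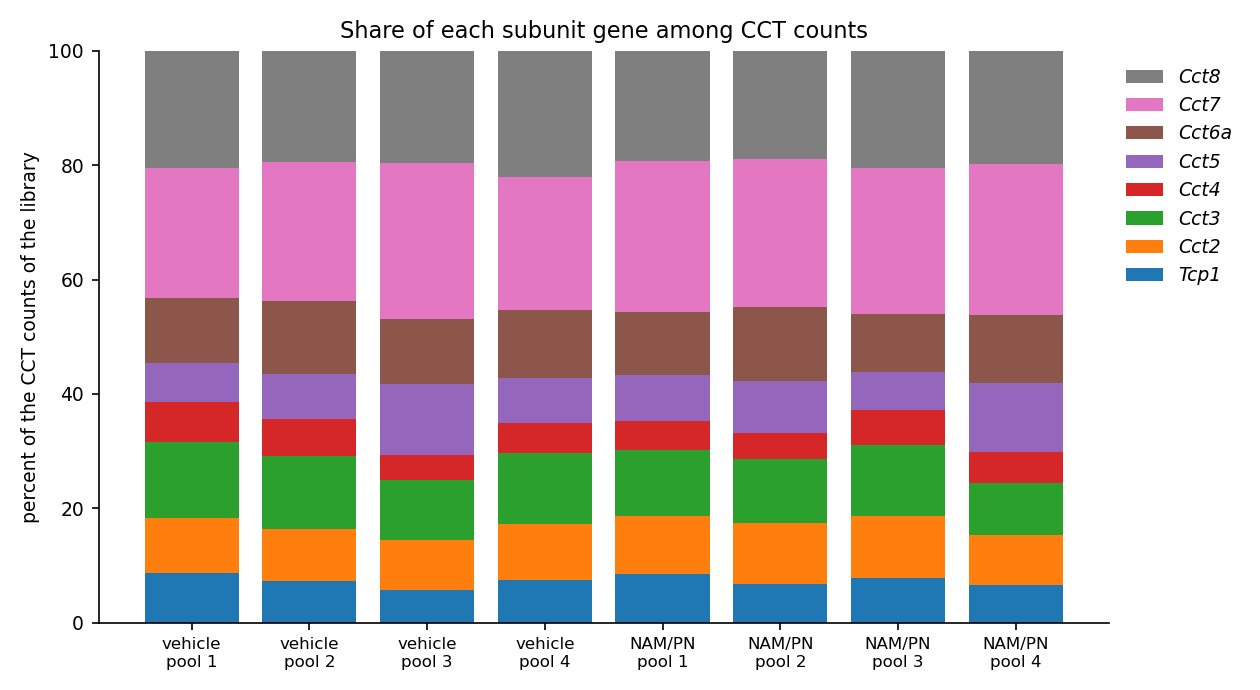
Percent of the summed CCT counts of each library (y axis, 0 to 100) taken by each of the 8 subunit genes, for 4 vehicle and 4 NAM/PN libraries. Cct5 takes 12.5% in vehicle pool 3 and 12.2% in NAM/PN pool 4 against 6.63% to 9.07% elsewhere, and heights of different subunits are not to be compared.

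Over the 4 pools, the number of members higher with NAM/PN was 5 of 10 in pool 1, 8 in pool 2, 9 in pool 3 and 8 in pool 4. Of all tested genes, 48.6, 49.4, 49.2 and 47.7% were higher in pools 1 to 4. The median log2 difference of the 10 members was -0.0011, 0.12, 0.49 and 0.18 in pools 1 to 4, against medians between -0.053 and 0 over all tested genes. Pool 3, which gave the largest median, includes the vehicle library that stood apart, and the median of pool 1 was the closest to 0.

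Most members start beside another gene on the opposite strand, and none of these neighbours passed the test. The start of Fam173b lies 48 bases from that of Cct5, the start of Tsacc 117 bases from that of Cct3, that of B130034C11Rik 126 bases from Cct8, that of Psph 451 bases from Cct6a, that of Pradc1 456 bases from Cct7 and that of Mrpl18 644 bases from Tcp1. Pradc1, the partner of Cct7, had the smallest p among them, with 6.85 ± 2.52 CPM in vehicle and 14.7 ± 5.92 CPM in NAM/PN libraries (log2 fold change 1.10, 95% interval -0.087 to 2.28, adjusted p = 0.600). Psph, an enzyme of serine synthesis beside Cct6a, had a log2 fold change of 0.35 (adjusted p = 0.867), Fam173b one of 0.46 (adjusted p = 0.754) and Mrpl18, a protein of the mitochondrial ribosome, one of -0.15 (adjusted p = 0.917). Tsacc (-0.66) and B130034C11Rik (1.12) had at most 45 and 25 counts in a library, with intervals of -4.70 to 3.38 and -3.08 to 5.33. Cct2 and Cct4 had no such neighbour within 1000 bases. Tcp1 overlaps Mrpl18, Cct6a overlaps Psph, Cct7 overlaps Pradc1 and Cct8 overlaps Usp16 on the other strand, so without a stated strand setting reads from the overlaps cannot be told apart.

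Genes that work with the chaperonins were counted from lists. Of 93 genes in 10 lists, the members not counted, 89 were tested and none was called, with 8 higher and 3 lower at an unadjusted p under 0.05. Over all tested genes 1.28% were called, 3.96% were higher and 5.32% lower at that unadjusted p. The log2 fold change was above 0 in 58 of the 89, against 49.8% of all tested genes, and its median was 0.084, against -0.0022. Among the 975 genes at the members' level, 60.0% were above 0, the median was 0.053 and 8.92% were higher at that unadjusted p. No background at the level of the listed genes themselves was taken. In the list of prefoldin and CCT cofactors, 7 of 10 tested genes were above 0. Pfdn4, a prefoldin subunit, was at 52.0, 68.9, 50.0 and 52.2 CPM in vehicle pools 1 to 4 and 107, 96.6, 77.4 and 78.0 CPM in NAM/PN pools 1 to 4. All its NAM/PN values were above all vehicle values, as in 2.79% of all tested genes, and its log2 fold change was 0.69 (95% interval 0.24 to 1.13, adjusted p = 0.166). Pfdn4, like Hspa8 and Clpb below, was named for the smallest p in its list, so the lack of overlap follows in part from that choice. In these lists Pfdn2, Tuba1c, Gnb1, Bbs12 and Hspa8 were also higher without overlap. Among the actin and tubulin clients 8 of 13 tested were above 0, and Tuba4a, an α-tubulin, had 283 ± 50.6 CPM in vehicle and 409 ± 84.3 CPM in NAM/PN libraries (log2 fold change 0.53, adjusted p = 0.245). The muscle actins Acta1 and Actc1 were not in this list but among the differentiation markers. Acta1 was called lower, at 394 ± 90.5 CPM in vehicle and 60.5 ± 39.0 CPM in NAM/PN libraries (log2 fold change -2.70, adjusted p = 0.000974). Actc1 was lower too (log2 fold change -1.16, adjusted p = 0.281, and 0.00931 with the pool as a block). Of the other clients 10 of 12 were above 0, and Ccne1, a cyclin of S phase entry that CCT folds, had 56.3 ± 20.4 CPM in vehicle and 85.5 ± 18.7 CPM in NAM/PN libraries (log2 fold change 0.60, adjusted p = 0.504). In the list of tubulin folding cofactors 5 of 6 were above 0, and Arl2, a small GTPase that regulates them, had 72.6 ± 32.1 CPM in vehicle and 53.0 ± 13.2 CPM in NAM/PN libraries (log2 fold change -0.45, adjusted p = 0.747). Of the chaperonin-like genes, Mkks, Bbs10 and Bbs12 were tested and Cct6b and Cct8l1 were too low, and Bbs12, which helps assemble the BBSome, had 3.76 ± 1.19 CPM in vehicle and 8.79 ± 4.22 CPM in NAM/PN libraries (log2 fold change 1.22, adjusted p = 0.775).

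Of the mitochondrial lists, import had most of its tested genes above 0 and the others did not. Among mitochondrial HSP70 and other folding genes, 3 of 8 were above 0, and Clpb, a disaggregase, had 45.8 ± 12.4 CPM in vehicle and 27.5 ± 3.14 CPM in NAM/PN libraries (log2 fold change -0.73, adjusted p = 0.348). All its NAM/PN libraries were below all its vehicle libraries, and the share of all tested genes lower without overlap was not counted. Of the proteases 3 of 7 were above 0, and Clpx, the unfoldase of the ClpXP protease, had 14.0 ± 1.86 CPM in vehicle and 8.79 ± 7.09 CPM in NAM/PN libraries (log2 fold change -0.67, adjusted p = 0.873). In the import list 8 of 9 tested were above 0, and Pam16, a part of the import motor, had 12.6 ± 2.84 CPM in vehicle and 23.3 ± 9.77 CPM in NAM/PN libraries (log2 fold change 0.89, adjusted p = 0.528). Of the 4 transcription factors of mitochondrial stress 2 were above 0, and Cebpb had 28.3 ± 6.22 CPM in vehicle and 37.7 ± 11.8 CPM in NAM/PN libraries (log2 fold change 0.42, adjusted p = 0.812). The 17 genes of heat shock factors and cytosolic HSP90 and HSP70 included the smallest p of all the lists. Hspa8, the constitutive HSP70 that delivers clients to CCT, was at 245, 298, 206 and 258 CPM in vehicle pools 1 to 4 and 395, 424, 328 and 441 CPM in NAM/PN pools 1 to 4. Every NAM/PN value of Hspa8 was above every vehicle value, and the log2 fold change was 0.66 (95% interval 0.31 to 1.01, adjusted p = 0.0651). Of these 17 genes 10 were above 0, and the median was 0.016. At an unadjusted p under 0.05, 1 was higher, Hspa8, and 1 was lower, the heat shock factor Hsf2. Every NAM/PN value of Hsf2 was below every vehicle value (log2 fold change -0.54, adjusted p = 0.414).

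**Figure D5:**
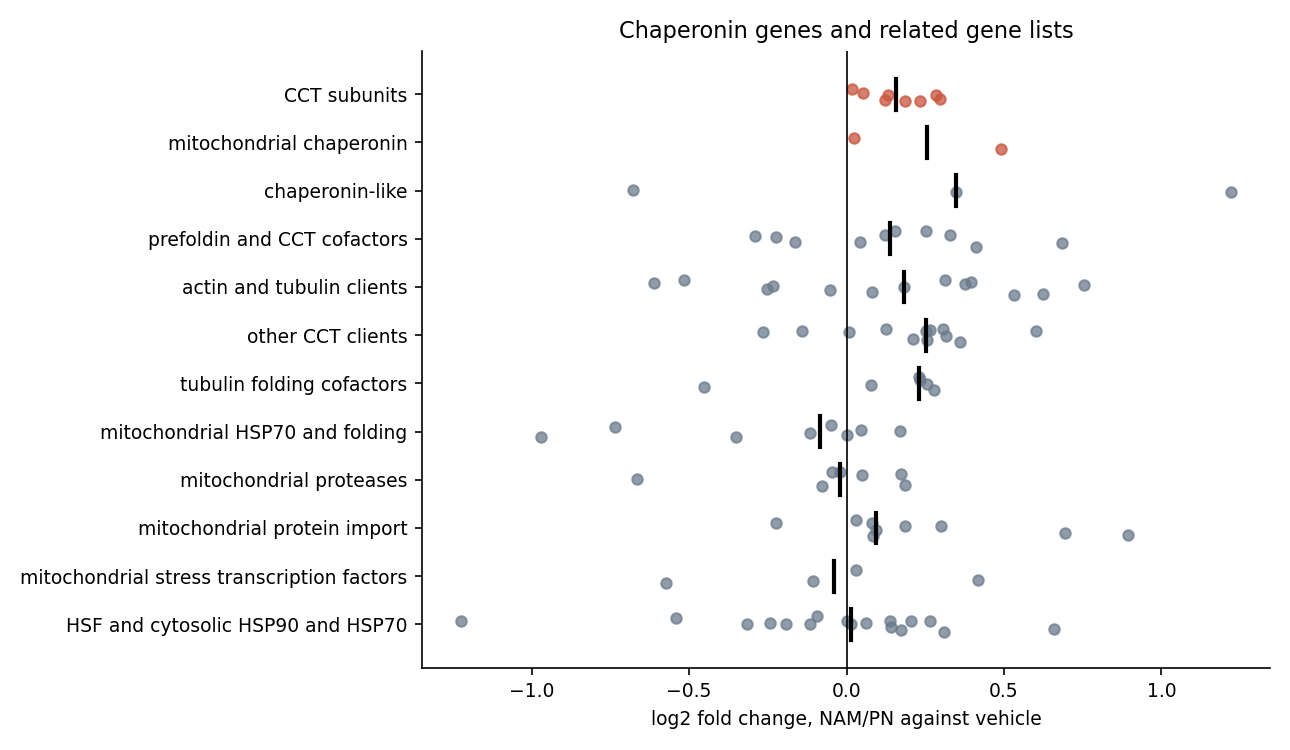
Log2 fold change of NAM/PN against vehicle (x axis) of each tested gene in the 12 lists (rows), with the 10 members in red, other genes in grey and a black bar at the median of a list. The 8 CCT subunits lie in a narrow range between 0.017 and 0.30, and Hspd1 and Hspe1 are also above 0, while each of the 10 lists in grey has genes on both sides of 0. The grey lists include genes with low counts and a large error, such as Bbs10 (SE 1.73). Without vehicle pool 3, 7 of the 10 members were above 0.

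The genes whose levels followed the mean log2 CPM of the 8 CCT subunits most closely over the 8 libraries, among 7399 candidates, were Fkbp5 (Pearson r = 0.991, Spearman rho = 0.976), Gm5963 (r = 0.976, rho = 0.952) and Pcbp1 (r = 0.969, rho = 0.976). Those closest to the mean of Hspd1 and Hspe1 were Cdc6 (r = 0.975, rho = 0.929), Pxdn (r = 0.973, rho = 0.833) and Eif1ad (r = 0.968, rho = 0.786). They were picked as the highest of all candidates, and the points include the libraries that stood apart, so these values are descriptions without a test. The median r over all candidates was 0.032 and 0.019, and the 95th percentile was 0.775 and 0.736. The genes behind each mean did not all move together. Between Hspd1 and Hspe1 r was -0.020, and between pairs of CCT subunits it ranged from -0.82 (Cct3 with Cct5) to 0.81 (Tcp1 with Cct3). None of the 6 genes closest to the means was called, with adjusted p-values from 0.443 for Pcbp1 to 0.692 for Cdc6.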

How the data were processed

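RNA of 8 libraries was measured with a QuantSeq 3′ kit. The authors aligned reads to GRCm38 and deposited raw counts per gene from htseq-count, for which the processing notes name HTSeq 2.16.2. Settings for strand and shared reads are not given in the sources used here. Counts were analysed in R 4.3.3 with edgeR 4.0.16 (filterByExpr, minimum count 10 and total 15; TMM; quasi-likelihood test; Benjamini-Hochberg over 12060 genes; threshold 0.05, two-sided), with DESeq2 1.42.0 and limma 3.58.1 as alternatives. CPM values are TMM-normalised, and 3 counts, the floor of detection, were 0.295 to 0.464 CPM. Intervals of fold changes are at 95%. Positions are from GENCODE M21 and promoters from RefSeq, which names 27025 genes.

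The labels give both libraries of a pool the same pool ID, taken here as the same mice, so pools pair the conditions. Deviations of paired libraries correlated by -0.033 to 0.031 only, with no sign of pairing in the values, and the block is given as an alternative. The members and lists were chosen with earlier results of these data known. Besides the members, named genes are those with the smallest p in each of the 12 lists that hold no cell type markers, neighbours with a start within 1000 bases on the other strand, and the 3 genes most like each mean. Named outside this rule are cell type markers with the muscle actins, the other chaperonin-like genes, Usp16, Hsf2 and further genes free of overlap. Pools are separate samples of mice. With counts simulated for the 12060 genes, 11 of 16 highly expressed genes (average log2 CPM of at least 7) changed 2-fold and 15 of 15 changed 4-fold were called, for NAM/PN against vehicle.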

Additional observations from a re-analysis of the deposited data

Results flagged for a closer look

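Of 46 sets of 4 libraries examined (levels of the members, their shares, sums and ratio, and the shares of ribosomal RNA and of the mitochondrial genome), 3 held a library far from the other 3, and chance gives about 1 in 20. Cct7 was at 1354 CPM in NAM/PN pool 4, against 1173 to 1195 CPM in the other NAM/PN libraries. The Hspd1 to Hspe1 ratio was 2.55 in vehicle pool 3, against 2.24 to 2.29 in the other vehicle libraries, and that library also had the highest share of counts on Hspd1-ps3. Ribosomal RNA genes took 18.7% of counts in vehicle pool 3, against 9.09% to 9.59% in the other vehicle libraries.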

How the results depend on the processing

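The count of members called was 0 under every setting run, and the lowest adjusted p of any member was 0.182 (Cct7 with voom). The number of genes called in all, 154, was 289 with DESeq2, 366 with no filter on low counts, 232 with voom, 244 at a threshold of 0.10 and 236 without the 2 libraries that stood apart, a setting chosen after seeing the data, as was joining Hspd1 with its pseudogene. With the pool as a replicate block it was 156, and the block changed no call of a member, with a smallest adjusted p of 0.409. Leaving out single libraries or pools gave 42 (without pool 2) to 177 (without NAM/PN pool 4), and it was 80 without vehicle pool 2, 87 without vehicle pool 4, 92 without NAM/PN pool 1, 65 without pool 1 and 94 without pool 4. The median of the 8 CCT subunits was 0.075 (without vehicle pool 3) to 0.22, with 0.0997 without pool 3, and 0.048 to 0.21 under the other settings. Cct3 was -0.0043 and Cct4 -0.024 with voom, and -0.038 and -0.14 without both libraries. Hspd1 was -0.025 with Hspd1-ps3 joined. With single libraries or pools left out, Cct3 was between -0.13 and 0.079, Cct4 between -0.15 and 0.22, Cct5 between -0.038 and 0.53 and Hspd1 between -0.13 and 0.14. Of the 10 members, 7 to 10 were above 0 in these fits. The cause of these changes was not tested. The log2 difference of the Hspd1 to Hspe1 ratio was -0.65 to -0.22 with libraries left out, -0.23 without pool 4, and -0.52 (exact p = 0.171) with Hspd1-ps3 joined. In simulation 11 of 16 highly expressed genes changed 2-fold were called, and changes of the size fitted for the members, all under 2-fold, were not simulated.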
